A study of Mus musculus with 8 samples.

Results

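Solute carriers are membrane proteins that move amino acids, sugars, metals, ions, vitamins and nucleotides across the plasma membrane and the membranes of organelles. The genes described here were all protein-coding genes of the deposited table whose symbol starts with Slc, a family number and a letter, or with Slco, leaving out the mitochondrial Slc25a family. The rule uses the symbol alone, but it was applied to a table whose genes had already passed an adjusted p-value in the same comparison. The rule found 120 of the 8278 listed genes. In the GENCODE M21 annotation 338 protein-coding genes match it, and the other 218 were not analysed here. Of the 120, 116 are carriers of 41 families and 4 are only named after a carrier (*Slc4a1ap*, *Slc7a6os*, *Slc9a3r1* and *Slc9a3r2*). The amino acid families, here numbers 1, 3, 6, 7, 36, 38 and 43, held 21 listed genes, and the other families held 95.

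The libraries came from MCECs, an established mouse line of cardiac endothelial origin grown in medium with serum. One group of 4 was made from *Hdac3* KO MCECs, stable cells infected with a lentiCRISPR v2 virus that carries an *Hdac3* single guide RNA together with Cas9. The other 4 were EV MCECs, which received empty vector lentivirus. The comparison addresses how gene expression differs where the gene of the histone deacetylase HDAC3 is targeted. The sources used here do not say whether the libraries of a group were separate cultures or whether the cells were clones, and the study's general statements name technical replicates for work on cultured cells as well as biological replicates and independent repeats, without saying which these libraries are, so the p-values measure only the spread between these samples, which may be technical.

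The libraries held 15775327 to 22255684 reads, of which 84.3% to 85.9% fell in the listed genes. Normalized counts of *Hdac3* were between 1934 and 2137 in EV MCECs and between 1458 and 1551 in *Hdac3* KO libraries (log2 fold change -0.45), so the transcript was lower but present in every library labelled KO. The paper checked the deletion in its MCECs at the protein level, by western blot, which these RNA counts do not measure. Of 15 endothelial markers 6 were listed, with a summed level of 26.2 to 28.3 FPKM (fragments per kilobase of gene length, scaled to the library total) in EV and 20.9 to 22.4 in KO libraries. Of these 6, 5 fell and 1 rose, and *Eng* was the most abundant, at 21.5 FPKM in EV and 17.7 in KO. *Pecam1*, a defining endothelial marker and the one that rose, was near 0 at 0.00802 FPKM in EV and 0.0569 in KO. The 7 listed of 10 fibroblast markers summed to 1952 to 2047 FPKM in EV and 1714 to 1803 in KO libraries, and 5 of them fell. Both listed smooth muscle markers fell, from 24.02 to 29.9 summed FPKM in EV to 4.83 to 6.11 in KO. The 1 listed of 5 macrophage markers, *Cd68*, was at 5.36 to 5.89 FPKM in EV and 11.1 to 12.5 in KO, and the 2 listed of 4 epithelial markers summed to 1.497 to 2.06 and 3.56 to 4.81. None of 7 cardiomyocyte markers was listed. The table holds only genes under 0.05 in the authors' adjusted p-value, so the levels of unlisted markers are not known here. The sums therefore cover the listed markers alone and are not levels of a cell type. FPKM does not include the TMM (trimmed mean of M-values) factors behind normalized counts, 1.04 to 1.05 in EV and 0.957 to 0.962 in KO libraries, so FPKM places KO lower relative to EV than normalized counts do, and the lower fibroblast sum in KO is closer to that of EV with them. The part of these genes in the values below was not tested.

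Amino acid carriers differ in what they move and how they are built. The heavy chain CD98hc, encoded by *Slc3a2*, pairs with light chains of the *Slc7* family and brings them to the cell surface. The light chains exchange one amino acid for another, while carriers of the *Slc38* and *Slc1* families use the sodium gradient. Several genes of amino acid uptake and synthesis are known targets of the transcription factor ATF4, which binds with C/EBP partners to a short element whose core reads TGATGNAA.

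Promoter sequences from RefSeq (GRCm38.p6, the mm10 assembly), 250 bases before to 50 bases after a start site, were found by symbol for 85 of the 120 genes. The core TGATGNAA, searched on both strands, was in promoters of 4 of the 85, *Slc1a4*, *Slc7a11*, *Slc50a1* and *Slco2a1*, against 4.51% of all 27025 symbols in the promoter table. The narrower TGATGCAA, every match of which is also a match of TGATGNAA, was in 3 of the 85, *Slc1a4*, *Slc7a11* and *Slc50a1*, against 1.03% of all symbols. A match of these letters is a description and not a bound site. These 3 promoters are printed because they hold the narrower core in an amino acid carrier or in a carrier that moved the other way. Capitals mark TGATGCAA or its reverse complement TTGCATCA, and the strands are those of the genes.
*Slc7a11* (chr3:50443564-50443863, minus strand): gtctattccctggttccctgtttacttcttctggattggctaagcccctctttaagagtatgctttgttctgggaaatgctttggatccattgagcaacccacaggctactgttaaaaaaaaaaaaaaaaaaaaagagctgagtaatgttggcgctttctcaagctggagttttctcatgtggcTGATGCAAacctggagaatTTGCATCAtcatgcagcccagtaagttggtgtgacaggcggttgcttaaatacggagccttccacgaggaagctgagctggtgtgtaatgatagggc
*Slc1a4* (chr11:20332664-20332963, minus strand): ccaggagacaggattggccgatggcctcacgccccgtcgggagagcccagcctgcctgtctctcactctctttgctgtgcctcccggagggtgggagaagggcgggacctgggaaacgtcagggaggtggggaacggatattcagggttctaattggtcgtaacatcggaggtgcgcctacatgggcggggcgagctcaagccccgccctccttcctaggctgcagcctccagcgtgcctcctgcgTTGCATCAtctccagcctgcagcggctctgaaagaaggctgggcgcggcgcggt
*Slc50a1* (chr3:89270521-89270820, minus strand): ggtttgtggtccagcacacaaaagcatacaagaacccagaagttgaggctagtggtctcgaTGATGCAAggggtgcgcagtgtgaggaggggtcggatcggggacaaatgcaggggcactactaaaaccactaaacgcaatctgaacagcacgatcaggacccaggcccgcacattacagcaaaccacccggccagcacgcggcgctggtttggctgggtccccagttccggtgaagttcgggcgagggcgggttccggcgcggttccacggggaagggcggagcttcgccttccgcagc
The *Slc7a11* window held 2 matches on opposite strands, ending 58 and 39 bases before the start site. In *Slc1a4* the match spanned the start site, and in *Slc50a1* it ended 181 bases before it. Among the 13 listed members of the amino acid families with a promoter in the table, *Slc7a11* and *Slc1a4* were the 2 with a match. *Slc7a11* and *Slc1a4* rose in *Hdac3* KO MCECs and *Slc50a1*, a sugar carrier, fell, as described below.

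The quasi-likelihood test of edgeR was run on all listed genes, which were called at an adjusted p under 0.01. Since every listed gene already had an adjusted p-value under 0.05 in the comparison of the authors, 96.7% of the table was called, 49.6% as lower and 47.1% as higher in *Hdac3* KO MCECs. Among the 120 genes 62 were lower, 52 were higher and 6 did not pass. The share called was close to that of the table, and the directions and sizes carry the description. The EV and KO libraries did not overlap for 111 of the 120 genes and for 91.1% of the table. The median log2 fold change was -0.15 over the 120 genes and 0.06 over the table. The median absolute log2 fold change was 0.49 against 0.40.

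The amino acid families and the other families lay on opposite sides of the table's median. Of the 21 genes of the amino acid families 15 were higher (14 above 0 without TMM factors) and 6 were lower, and their log2 fold changes had a median of 0.53. Of the 95 genes of the other families 36 were higher, 54 were lower and 5 did not pass, with a median of -0.18. Scaling to library totals without TMM factors moved the median of all listed genes from 0.06 to -0.06 and left these medians at 0.41 and -0.30, with *Slc6a6*, *Slc12a2* and *Slco2a1* the 3 genes whose sign turned. A log2 fold change past 1 was called higher for 5 of the 21 and lower for 4 of the 21, against 4.43% and 8.36% of the table. In the other families 8 of 95 were past 1 upward and 7 of 95 downward. These counts include genes with few reads, which are given separately below.

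**Figure D1:**
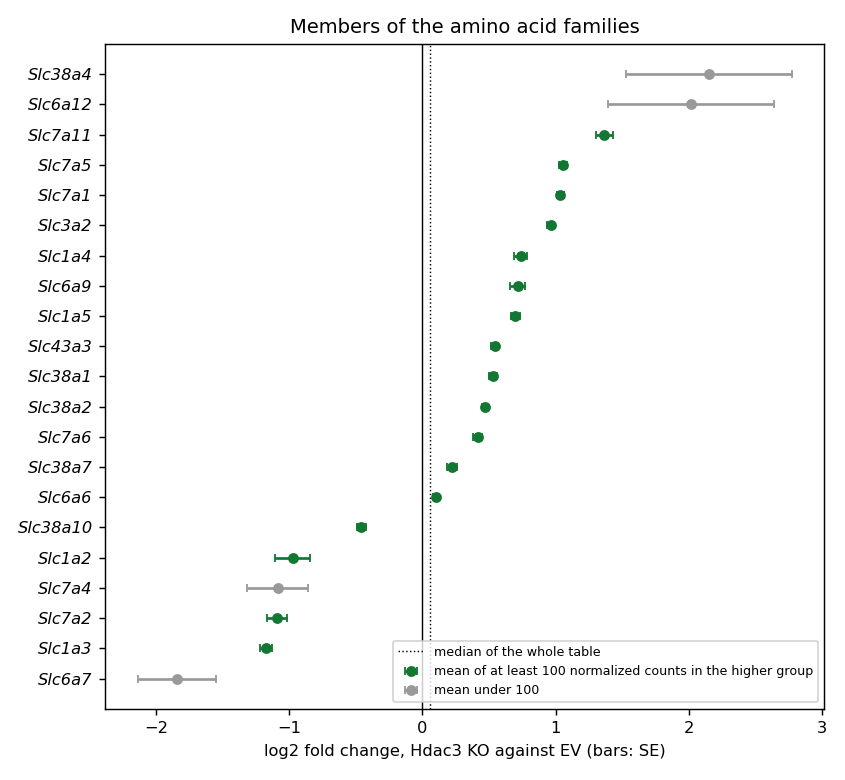
Log2 fold change of *Hdac3* KO against EV MCECs (x axis) for the 21 listed genes of the amino acid families, with bars for the SE. Green points are genes whose higher group averaged 100 or more normalized counts, and the 13 of them to the right of 0 reach 1.37 (*Slc7a11*), the lowest of them, *Slc6a6*, being below 0 without TMM factors.

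The carriers built on CD98hc rose together. *Slc7a11* (chr3:50364936-50443613, minus strand, mm10) encodes xCT, the light chain that takes up cystine in exchange for glutamate. It was at 229, 208, 198 and 216 normalized counts in EV replicates 1 to 4 and at 522, 560.0, 527 and 581 in KO replicates 1 to 4. Every KO library was above every EV library, the means being 213 ± 13.4 and 547 ± 28.4 (SD, n = 4 each), 2.57-fold higher (log2 fold change 1.37, SE 0.066, adjusted p = 1.9e-19). *Slc7a5* (chr8:121881150-121907694, minus strand) encodes LAT1, which imports large neutral amino acids such as leucine. Its normalized counts were 4516, 4852, 4594 and 4686 in EV and 9889.7, 9449, 9602 and 9806 in KO libraries, so the lowest KO library stood well above the highest EV library (log2 fold change 1.05, SE 0.027, adjusted p = 2.3e-27). The heavy chain gene *Slc3a2* (chr19:8706882-8723369, minus strand) gave 3806, 3738, 3917 and 3874 in EV and 7538, 7405, 7556 and 7437 in KO libraries, again without overlap (log2 fold change 0.96, SE 0.026, adjusted p = 1.0e-26). *Slc7a6*, whose product exchanges cationic for neutral amino acids, rose less, from 1396 ± 42.3 to 1859 ± 77.9 normalized counts (log2 fold change 0.41, SE 0.036, adjusted p = 1.8e-12). In a list of the heavy chain and its light chains 4 of 10 genes were in the table, all 4 higher (median log2 fold change 1.01). For each of the 4, an exact permutation test (two-sided, 70 ways to split the libraries) gave p = 0.0286, the smallest it can give. That value follows from the lack of overlap, which also held for 111 of the 120 genes and 91.1% of the table. It does not set these 4 genes apart.

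Levels of the heavy chain and the listed light chains were compared per length. *Slc3a2* was at 72.8 ± 1.599 FPKM in EV and 131 ± 1.38 in KO MCECs. *Slc7a5*, *Slc7a6* and *Slc7a11* summed to 92.1 ± 1.97 and 163 ± 3.12 FPKM (SD, n = 4 libraries each). The ratio of heavy chain to listed light chains was 0.792 ± 0.0325 in EV and 0.804 ± 0.0165 in KO libraries, with overlapping values. Most of the light chain sum was *Slc7a5*, at 70.8 ± 1.97 and 136 ± 2.699 FPKM, whereas *Slc7a11* was at 1.23 ± 0.079 and 2.92 ± 0.147.

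Cationic amino acid carriers moved in opposite directions. *Slc7a1* (chr5:148327410-148399904, minus strand) encodes CAT1, the widely expressed importer of arginine and lysine. It had 7447, 7986, 7378 and 7455 normalized counts in EV and 15654, 15211, 15291 and 15914 in KO libraries, a 2.05-fold rise without overlap (log2 fold change 1.04, SE 0.027, adjusted p = 3.4e-27). *Slc7a2*, which encodes the related CAT2, had 336, 324, 316 and 336 in EV and 158, 141, 158 and 158 in KO libraries and fell 2.13-fold, also without overlap (log2 fold change -1.09, SE 0.077, adjusted p = 6.7e-15). *Slc7a4*, another relative in the list, fell from 34.7 ± 5.25 to 16.3 ± 3.27 normalized counts (log2 fold change -1.09, SE 0.23, adjusted p = 5.5e-05), and 13.3% of its exonic bases lie in exons of other genes. *Slc7a1* was the most abundant of these genes, at 56.3 ± 1.98 and 106 ± 2.09 FPKM against 2.22 ± 0.065 and 0.958 ± 0.052 for *Slc7a2*, and the summed level of the 3 went from between 57.8 and 61.9 FPKM in EV to between 106 and 110.1 in KO libraries.

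Neutral amino acid carriers were mostly higher. In the list of neutral amino acid and glutamine carriers 8 of 17 genes were in the table, 7 higher and 1 lower (median log2 fold change 0.61). *Slc1a4*, a neutral amino acid exchanger that moves serine and alanine (chr11:20302180-20332713, minus strand), gave 456, 501, 511 and 506 normalized counts in EV and 808, 797, 843 and 848 in KO libraries (log2 fold change 0.74, SE 0.050, adjusted p = 1.6e-15). *Slc1a5*, which encodes the glutamine exchanger ASCT2, gave 1086, 1108, 1118 and 1117 in EV and 1809, 1778, 1782 and 1819 in KO libraries (log2 fold change 0.70, SE 0.035, adjusted p = 3.0e-19). Neither gene had an EV library as high as its lowest KO library. The sodium-coupled glutamine and alanine importers *Slc38a1* and *Slc38a2* had log2 fold changes of 0.53 and 0.47, and *Slc38a2* gave 8899.8, 8907, 8741 and 8695 normalized counts in EV and 12251, 12049, 12259.8 and 12238 in KO libraries (log2 fold change 0.47, SE 0.024, adjusted p = 9.4e-19). The glycine importer *Slc6a9* rose from 409 ± 22.6 to 670.0 ± 32.04 normalized counts (log2 fold change 0.71, SE 0.056, adjusted p = 8.3e-14), although 30.2% of its exonic bases overlap exons annotated on the opposite strand. *Slc38a7*, a lysosomal glutamine carrier, rose by a log2 fold change of 0.22 (0.10 and no longer past the cut-off without TMM factors, adjusted p = 0.0143). *Slc38a10* was the listed gene that fell, from 2932 ± 95.5 to 2136 ± 69.1 normalized counts (log2 fold change -0.46, SE 0.032, adjusted p = 4.0e-15).

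Glutamate carriers fell, in the same *Slc1* family whose neutral amino acid exchangers rose. *Slc1a3* (chr15:8634124-8710764, minus strand) encodes GLAST, a sodium-coupled glutamate importer. It had 1376, 1386, 1391 and 1362 normalized counts in EV and 574, 648, 605 and 610.3 in KO libraries, 2.26-fold lower (log2 fold change -1.18, SE 0.042, adjusted p = 2.8e-23). *Slc1a2*, which encodes the related GLT-1, had 132, 110.5, 129 and 126 in EV and 77.5, 45.5, 67.5 and 64.4 in KO libraries (log2 fold change -0.97, SE 0.13, adjusted p = 4.6e-08). The highest KO library was below the lowest EV library for both, and they were the 2 of 4 listed glutamate carriers in the table. The remaining members with many reads were *Slc43a3*, a purine nucleobase carrier despite its family number, which rose from 2953 ± 49.2 to 4298 ± 86.7 normalized counts (log2 fold change 0.54, SE 0.028, adjusted p = 9.6e-19), and the taurine importer *Slc6a6*. *Slc6a6* had a log2 fold change of 0.10 (adjusted p = 3.9e-04) that became -0.015 without TMM factors, and its FPKM, which uses library totals, was 81.7 ± 1.82 in EV and 80.9 ± 1.18 in KO. It was 1 of 2 listed genes of 7 carriers of taurine, creatine, betaine and monoamines, the other being *Slc6a12*. The proline carrier *Slc6a7* fell from 30.97 ± 3.92 to 8.82 ± 5.31 normalized counts (log2 fold change -1.84, SE 0.29, adjusted p = 6.6e-07).

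The summed level of the 21 genes rose from 593 ± 5.16 FPKM in EV to 822 ± 7.57 in KO MCECs, 1.39-fold (SD, n = 4 libraries each). The sum ranged from 588 to 600.1 FPKM over the EV libraries and from 813 to 831 over the KO libraries. *Slc7a5*, *Slc3a2* and *Slc7a1* together gained 173 FPKM, 75.4% of the net gain of 229.8. In EV MCECs the highest level was that of *Slc38a2* (102 ± 1.39 FPKM), followed by *Slc6a6* (81.7 ± 1.82). *Slc3a2* and *Slc7a5* came next with overlapping values, and then *Slc43a3* and *Slc7a1*, which also overlapped. In *Hdac3* KO MCECs *Slc7a5* came first (136 ± 2.699 FPKM), above *Slc3a2* (131 ± 1.38) and *Slc38a2* (129.9 ± 0.988), the last pair overlapping. *Slc7a1* followed at 106 ± 2.09 FPKM, and *Slc6a6* and *Slc43a3* overlapped below it. The summed level of the other 95 genes was 1213 ± 7.03 FPKM in EV and 1086 ± 5.25 in KO. Since FPKM leaves out the TMM factors, the KO sum of these 95 genes is closer to that of EV with them.

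**Figure D2:**
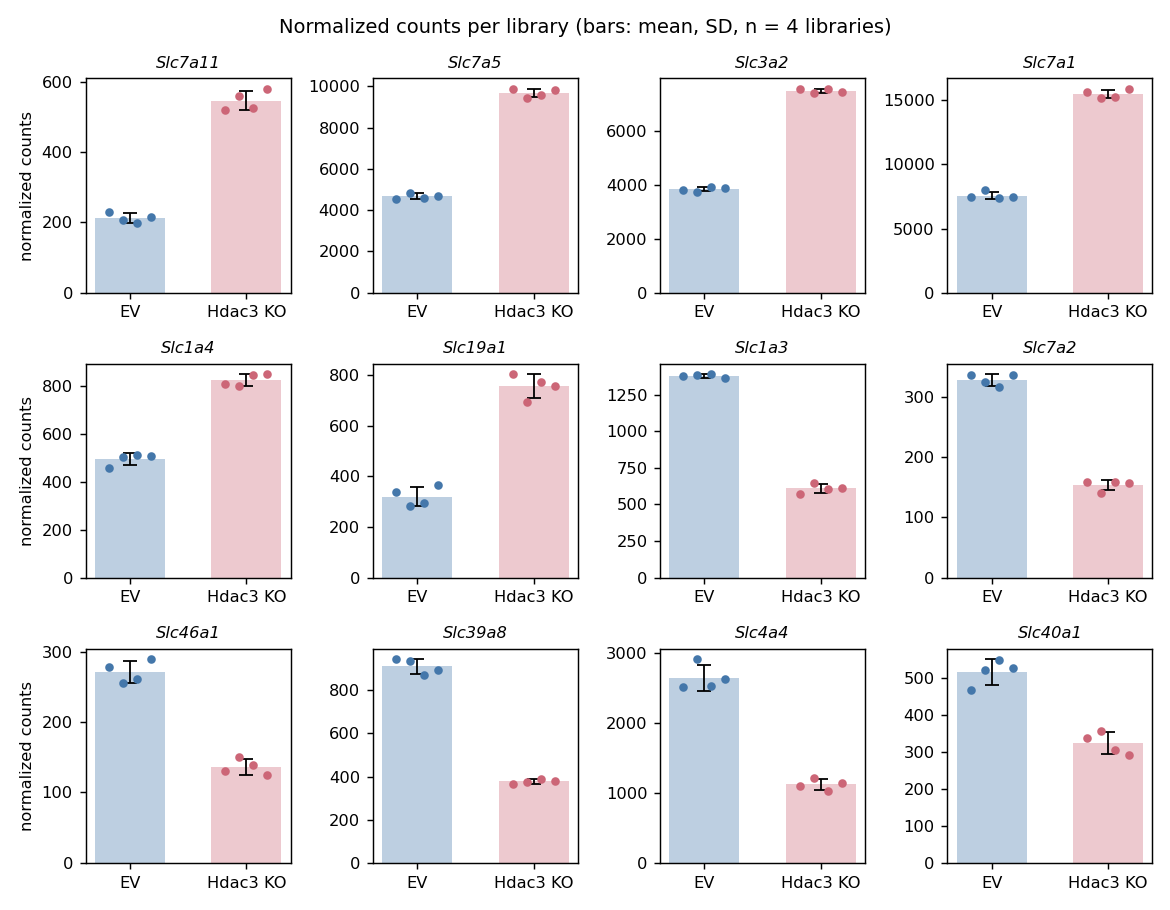
Normalized counts (y axis, from 0) in the 4 EV and 4 *Hdac3* KO libraries for 12 solute carriers, with bars for the mean and the SD. *Slc7a11*, *Slc7a5*, *Slc3a2*, *Slc7a1*, *Slc1a4* and *Slc19a1* were higher in every KO library, and *Slc1a3*, *Slc7a2*, *Slc46a1*, *Slc39a8*, *Slc4a4* and *Slc40a1* were lower in every KO library.

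Genes known to respond to amino acid supply or ATF4 were compared from a list that holds no solute carrier. Of its 27 genes 26 were in the table and all 26 were higher, against 47.1% of all listed genes. The median log2 fold change of the 26 was 1.004, against 0.06 for the table. Without TMM factors 25 were above 0 and *Atf5* was below it. *Atf4* itself rose from 5147 ± 64.2 to 10310.5 ± 90.9 normalized counts (log2 fold change 1.002, SE 0.025, adjusted p = 9.4e-28). *Asns*, asparagine synthetase, rose from 3191 ± 67.3 to 5995 ± 162 (log2 fold change 0.91, adjusted p = 3.8e-25). *Cth*, which makes cysteine in the transsulfuration pathway, rose from 66.4 ± 13.9 to 341 ± 3.11 (log2 fold change 2.35, adjusted p = 5.4e-21). These genes were listed with earlier results of these data known, so their common direction is a description.

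Vitamin and heme carriers moved both ways, with the folate carriers opposed. *Slc19a1* (chr10:77032241-77061002, plus strand) encodes the reduced folate carrier. It had 337, 284, 293 and 366 normalized counts in EV and 805, 695, 773 and 758 in KO libraries, 2.37-fold higher (log2 fold change 1.23, SE 0.065, adjusted p = 1.8e-18). *Slc46a1* (chr11:78465697-78472059, plus strand) encodes the proton-coupled folate carrier, which works at acid pH. It had 279, 255, 261 and 289.6 in EV and 131, 150.2, 139 and 125 in KO libraries, 1.99-fold lower (log2 fold change -0.99, SE 0.086, adjusted p = 1.4e-12). The groups did not overlap for either gene. In FPKM their order turned over, from 5.98 ± 0.714 for *Slc19a1* and 7.33 ± 0.426 for *Slc46a1* in EV to 13.04 ± 0.797 and 3.39 ± 0.276 in KO. The thiamine carrier *Slc19a2* rose (log2 fold change 0.69) and so did *Slc23a2*, an ascorbate carrier (0.36), while the riboflavin carrier *Slc52a2* fell (-0.32). *Slc48a1*, a heme carrier of endosomes and lysosomes, had the highest mean level of the 116 carriers in EV MCECs, was below *Slc7a5*, *Slc3a2* and *Slc38a2* in KO, and fell from 137 ± 1.32 to 111 ± 3.47 FPKM (log2 fold change -0.18, SE 0.027, adjusted p = 1.3e-07).

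Metal carriers moved in both directions, importers and exporters alike. Of 8 listed zinc importers of the ZIP family 5 were lower and 3 higher. *Slc39a8* (chr3:135825279-135888572, plus strand) encodes ZIP8, which imports zinc, manganese and iron. It had 944, 933, 868 and 894 normalized counts in EV and 363, 376, 389 and 381 in KO libraries, 2.41-fold lower without overlap (log2 fold change -1.27, SE 0.050, adjusted p = 6.0e-22). Its close relative ZIP14, encoded by *Slc39a14*, went the other way with 420.5, 454, 439 and 413 in EV and 681, 660.2, 654 and 744 in KO libraries (log2 fold change 0.67, SE 0.055, adjusted p = 4.1e-13). *Slc39a6* and *Slc39a10*, the other importers that rose, had log2 fold changes of 0.52 and 0.28, and *Slc39a1*, *Slc39a3*, *Slc39a4* and *Slc39a13* had -0.40, -0.33, -0.95 and -0.46.

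Of 5 zinc exporters 3 were higher, 1 was lower and *Slc30a6* did not pass. *Slc30a4* and the plasma membrane exporter *Slc30a1* rose by log2 fold changes of 0.59 and 0.41. *Slc30a5* had a log2 fold change of 0.13, which shrank to 0.012 without TMM factors and no longer passed (adjusted p = 0.759). Ferroportin, the iron exporter encoded by *Slc40a1*, had 467, 521, 550.1 and 528 normalized counts in EV and 338, 357, 305 and 293 in KO libraries (log2 fold change -0.68, SE 0.066, adjusted p = 2.4e-11). Of 7 iron, heme and copper carriers 6 were in the table, 4 lower and 2 higher. The iron importer *Slc11a2* had a log2 fold change of 0.20 (adjusted p = 4.3e-04, and 0.133 without TMM factors). The copper importer *Slc31a1*, the other that rose, had a log2 fold change of 0.17 (adjusted p = 1.0e-04), so both calls were lost without TMM factors (*Slc31a1* 0.054, adjusted p = 0.184). The 3 listed genes of the magnesium carrier family *Slc41* were all lower, with log2 fold changes between -0.73 and -0.18.

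All 4 listed genes of the sodium-calcium exchanger families fell (median log2 fold change -0.98), at a summed level of 14.7 to 15.5 FPKM in EV against 8.51 to 8.94 in KO libraries. *Slc8a1* (chr17:81388691-81649607, minus strand) encodes NCX1, which exports calcium in exchange for sodium. It had 138, 123, 119 and 118 normalized counts in EV and 34.6, 56.5, 64.7 and 44.8 in KO libraries. The groups did not overlap (log2 fold change -1.29, SE 0.14, adjusted p = 4.8e-10). *Slc24a3*, a potassium-dependent exchanger, and *Slc8b1*, the mitochondrial exchanger, had log2 fold changes of -0.67 and -0.47. The other listed gene, *Slc8a2*, had few reads, with 10.3 ± 2.16 normalized counts in EV and 3.09 ± 2.32 in KO (log2 fold change -1.71, SE 0.47).

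The sodium-bicarbonate cotransporter gene *Slc4a4* (chr5:88886818-89239653, plus strand) had 2503, 2909.5, 2530.1 and 2626 normalized counts in EV and 1101, 1211, 1023 and 1139 in KO libraries, 2.36-fold lower without overlap (log2 fold change -1.24, SE 0.044, adjusted p = 2.1e-23). Of 6 listed bicarbonate carriers 4 were lower, 1 was higher and *Slc4a7* did not pass, and their summed level went from between 75.7 and 81.3 FPKM to between 51.9 and 54.9. The anion exchanger gene *Slc4a2* was the most abundant of them and fell from 53.1 ± 1.25 to 39.6 ± 1.12 FPKM (log2 fold change -0.30), with 13.7% of its exonic bases in exons of other genes. Among the sodium-proton exchangers *Slc9a5* and *Slc9a8* fell, and *Slc9a2* rose from 19.7 ± 2.997 to 62.6 ± 11.4 normalized counts. The potassium-chloride cotransporter gene *Slc12a7* fell from 1460.1, 1561, 1467 and 1564 in EV to 938, 925, 831 and 807 in KO libraries (log2 fold change -0.79, SE 0.044, adjusted p = 8.6e-18). The sodium-potassium-chloride cotransporter *Slc12a2* had a log2 fold change of 0.11 (adjusted p = 0.0029), which became -0.004 without TMM factors and lost its call without EV replicate 3 (adjusted p = 0.0107) or EV replicate 4 (0.0147).

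Among carriers of sugars and fuels, most listed glucose carriers were lower. In a list of facilitative glucose carriers 4 of 10 genes were in the table, 3 lower and 1 higher, and their summed level was 40.4 to 43.4 FPKM in EV and 26.96 to 28.7 in KO libraries. Most of that sum was *Slc50a1*, which fell from 30.7 ± 1.19 to 20.04 ± 0.356 FPKM (log2 fold change -0.50, SE 0.048, adjusted p = 1.7e-11). *Slc2a8*, an intracellular glucose carrier, fell (-0.56), and *Slc2a6* rose from 34.5 ± 6.52 to 69.7 ± 7.87 normalized counts (log2 fold change 1.01, SE 0.17, adjusted p = 1.6e-06). *Slc2a3*, which encodes the glucose carrier GLUT3, had a log2 fold change of -0.39, a call that was lost without KO replicate 2 (adjusted p = 0.0109). Of the 6 listed genes of the monocarboxylate carrier family *Slc16* 3 were higher and 3 lower, of which *Slc16a10* lost its higher call without TMM factors (adjusted p = 0.0232) and *Slc16a5* its lower call without KO replicate 4 (0.0104). *Slc16a1*, the lactate and pyruvate carrier MCT1, was the most abundant monocarboxylate carrier and rose from 74.6 ± 1.53 to 85.2 ± 1.76 FPKM (log2 fold change 0.31). *Slc16a6* rose from 73.7 ± 11.3 to 121 ± 7.93 normalized counts (log2 fold change 0.71, SE 0.12, adjusted p = 3.2e-06), with 23.5% of its exonic bases shared with other genes.

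**Figure D3:**
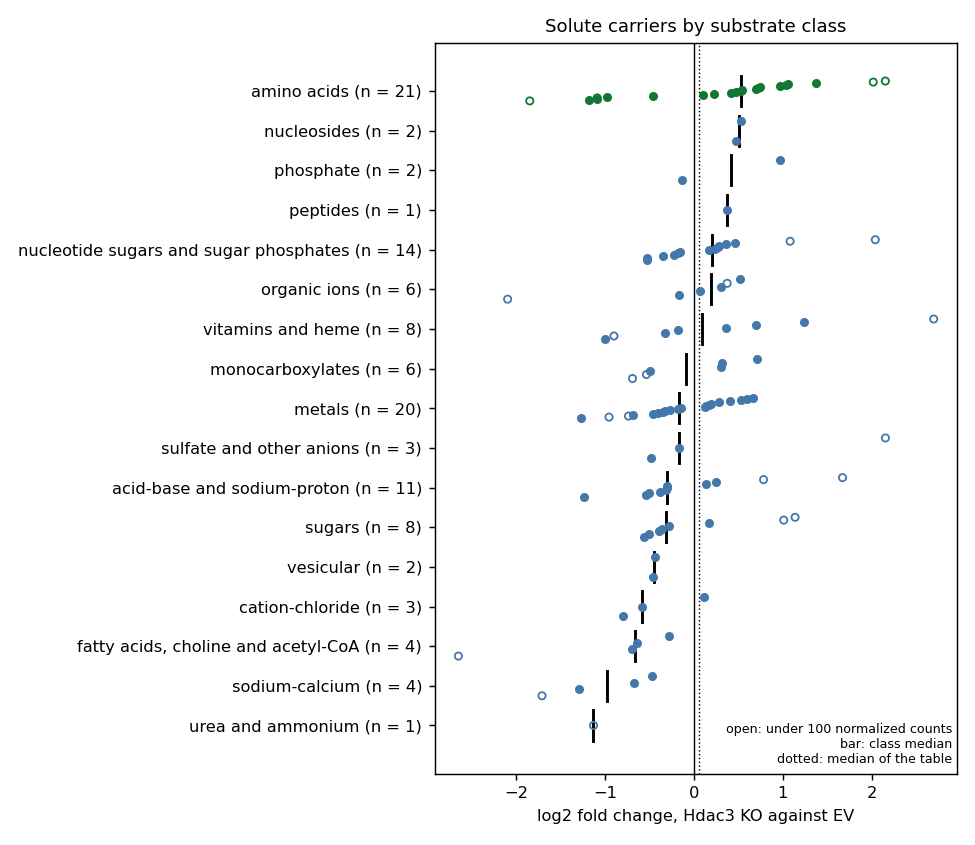
Log2 fold change of *Hdac3* KO against EV MCECs (x axis) for the 116 carriers, grouped by substrate class from the family number. Black bars are class medians, among them -0.98 for the sodium-calcium exchangers and 0.53 for the amino acid families. The lowest bar is 1 gene with few reads, *Slc14a2*, at -1.13, which was -0.70 without EV replicate 4, and the dotted line is the median of the table at 0.06.

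The sodium-phosphate cotransporters *Slc20a1* and *Slc20a2* were opposed. *Slc20a1* (chr2:129198764-129211616, plus strand) had 599, 641, 593 and 576 normalized counts in EV and 1164, 1165, 1190.3 and 1175 in KO libraries, 1.95-fold higher (log2 fold change 0.97, SE 0.043, adjusted p = 1.9e-20), with 13.1% of its exonic bases shared with other genes. *Slc20a2* fell from 2038 ± 63.8 to 1856 ± 54.7 (log2 fold change -0.14, SE 0.033, adjusted p = 3.7e-04). Both listed equilibrative nucleoside carriers rose, *Slc29a1* by a log2 fold change of 0.53 and *Slc29a2* by 0.48, although the libraries overlapped for *Slc29a2*. All 4 listed carriers of choline and fatty acids fell, *Slc44a3* on few reads and with a call that single libraries ended (below). The most abundant was *Slc44a2*, a choline carrier-like protein, with 3983, 4165, 3875 and 3875 normalized counts in EV and 2424, 2464, 2522 and 2436 in KO libraries (log2 fold change -0.69, SE 0.030, adjusted p = 6.3e-21). The fatty acid importers *Slc27a1* and *Slc27a4* had log2 fold changes of -0.63 and -0.28.

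Carriers of organelle membranes moved in both directions. The 14 listed genes of families 35 and 37, most of which carry nucleotide sugars or sugar phosphates into the endoplasmic reticulum and Golgi, held 7 higher, 6 lower and 1 that did not pass, and of the 7 *Slc35a4* (adjusted p = 0.102) and *Slc35f2* (0.0298) lost their calls without TMM factors. Of 6 listed lysosomal carriers 4 were lower and 2 higher. Among them *Slc46a3* and *Slc17a5*, the sialic acid exporter, had log2 fold changes of -0.90 and -0.46, and *Slc15a4*, a histidine and peptide carrier, rose (0.37). The prostaglandin carrier *Slco2a1*, at 43.3 ± 1.44 FPKM in EV and 42.05 ± 1.19 in KO, did not pass (log2 fold change 0.07, adjusted p = 0.0141, and -0.043 without TMM factors).

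**Figure D4:**
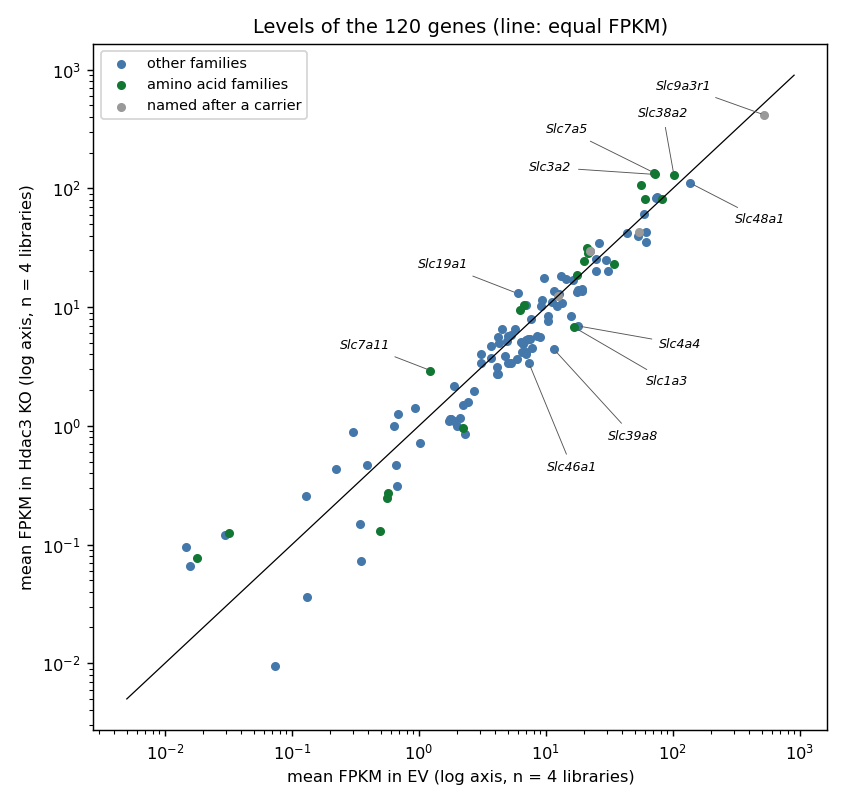
Mean FPKM of the 120 genes in EV (x axis) and *Hdac3* KO MCECs (y axis), both on log axes, n = 4 libraries a group. *Slc7a5* and *Slc3a2* lie above the line of equal levels at over 100 FPKM in KO, and *Slc4a4*, *Slc1a3* and *Slc39a8* lie below it.

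The 6 genes that did not pass (*Slco2a1*, *Slc4a1ap*, *Slc4a7*, *Slc30a6*, *Slc37a4* and *Slco5a1*) had log2 fold changes of 0.07 to 0.37 and adjusted p-values of 0.0123 to 0.023, and all 6 passed with the size factors of the authors. The EV and KO libraries overlapped for 9 genes, *Slc14a2*, *Slc16a5*, *Slc26a9*, *Slc29a2*, *Slc35a1*, *Slc37a4*, *Slc4a7*, *Slc5a5* and *Slco2a1*. Of these, *Slc14a2* lost its call without EV replicate 1, EV replicate 4, KO replicate 2 or KO replicate 3 (adjusted p up to 0.0951, with a log2 fold change of -0.70 in place of -1.13 without EV replicate 4), *Slc5a5* without EV replicate 2, EV replicate 4, KO replicate 1 or KO replicate 4 (up to 0.0472), *Slc35a1* without EV replicate 1, KO replicate 2 or KO replicate 4 (up to 0.0259) and *Slc16a5* without KO replicate 4 (0.0104).

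Levels spanned a wide range. Over all libraries 46 of the 120 genes were at 10 FPKM or more and 21 were under 1 FPKM. Of the 24 genes called past a log2 fold change of 1, 9 averaged 100 or more normalized counts in the higher group. For 6 genes that mean was under 10, and their fitted fold changes, which are plotted, are not quoted. Raw counts per library were 2 to 6 in EV and 0 to 1 in KO for *Slc44a3*, 1 to 2 and 3 to 12 for the betaine carrier *Slc6a12*, and 1 to 2 and 4 to 10 for the amino acid carrier *Slc38a4*. For *Slc35f3*, *Slc26a9* and the thiamine carrier *Slc19a3* they were 1 to 2, 0 to 3 and 0 to 2 in EV and 3 to 11, 2 to 9 and 3 to 11 in KO. Leaving out 1 library ended the call of *Slc6a12* (without EV replicate 4, adjusted p = 0.0143, or KO replicate 4, 0.0227) and of *Slc19a3* (without KO replicate 3, 0.0127). It also ended those of *Slc35f3* (without EV replicate 2, EV replicate 3 or KO replicate 3, up to 0.0353), *Slc26a9* (without EV replicate 3, EV replicate 4, KO replicate 1 or KO replicate 4, up to 0.023) and *Slc44a3* (without EV replicate 2, EV replicate 4, KO replicate 3 or KO replicate 4, up to 0.027).

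The 4 genes named after a carrier are binding partners or neighbours and do not transport. *Slc9a3r1*, the scaffold protein EBP50, had the highest level of all 120, at 526 ± 10.9 FPKM in EV and 416 ± 8.27 in KO (log2 fold change -0.22, SE 0.025, adjusted p = 4.7e-10). *Slc9a3r2*, a related scaffold, fell (-0.23), *Slc7a6os* rose (0.54) and *Slc4a1ap* did not pass (0.13, adjusted p = 0.0167). Without these 4 genes 60 carriers were lower and 51 higher, with the same median of -0.15. As libraries of pooled cells, they cannot tell fewer expressing cells from less RNA per cell.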

How the data were processed

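The data are bulk RNA-Seq libraries of MCECs, 4 labelled *Hdac3* KO and 4 labelled EV, with groups and replicate numbers from the sample titles. Alignment by the authors used tophat2 with bowtie2 and the mm10 genome. The submitters' processing notes name CASAVA and DESeq 1.6.3. The paper names the lumi package for extracting a count matrix, and the cufflinks suite and DESeq2 for differential expression. The program that assigned reads to genes, its annotation and the use of strand are not given in the sources used here. The deposited counts are unnormalized whole numbers of reads for each gene. The authors derived the deposited FPKM values from count, gene length and library total. A deposited signal, the mean per group of counts scaled by size factors, was used only to recover those factors. The deposited columns of log2 fold changes, p-values and adjusted p-values hold the authors' own comparison. The adjusted p-values served only to describe which genes are listed, and the other columns were not used.

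The table lists 8278 genes, each under 0.05 in the authors' adjusted p-value, and counts of calls describe a selection made on the same libraries. Library totals, 15775327 to 22255684 reads, were recovered from count, length and FPKM and multiplied by TMM factors. Normalized counts are scaled by these library sizes. Genes were tested with edgeR 4.0.16 (quasi-likelihood test, limma 3.58.1, R 4.3.3), with Benjamini-Hochberg adjustment over 8278 genes, a cut-off of 0.01 and no filter on low counts. Replicates differed by more than counting noise. Reads carry no molecular identifiers, so their number bounds counting error alone. A two-sided exact permutation test (70 arrangements) was added for single genes. Overlaps of exons come from GENCODE M21 (mm10) and coordinates from the deposited table. The method was tested on simulated data.

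The members and gene lists were chosen with earlier results of these data known. The genes named are the members with the 10 largest rises and 10 largest falls among those past the cut-off, without overlap and averaging 100 or more in the higher group, the 10 highest in FPKM, the amino acid families and members of the lists. Genes of the other classes were added as examples after their values were seen. The values of a few members are not reported here. The alternatives were other scalings, DESeq2 1.42.0, a replicate block, a low-count filter (at least 10 counts in at least 4 libraries), leaving out each library, other cut-offs and adjustment over 30000 genes. The figures used matplotlib 3.10.9 (Python 3.11.15).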

Additional observations from a re-analysis of the deposited data

Results flagged for a closer look

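In 11 of the 240 groups of 4 libraries tested over the 120 genes, 1 library stood apart from the other 3, its gap to the nearest library divided by the range of the group being above Dixon's critical value for 4 values. Chance gives about 1 in 20, or 12 of 240. Among amino acid carriers, EV replicate 2 was high for *Slc7a1*, at 7986 normalized counts against 7378 to 7455 in the others (gap over range 0.873). KO replicate 2 was low for *Slc38a2*, with 12049 normalized counts against 12238 to 12259.8 in the others (gap over range 0.899), and for *Slc7a2*, with 141 normalized counts against 157.7 to 158.4 in the others (gap over range 0.961). Leaving these libraries out gave log2 fold changes of 1.06, 0.48 and -1.05 in place of 1.04, 0.47 and -1.09.

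KO replicate 2 also stood apart for *Slc22a23*, a carrier of the organic ion family, with 750.3 normalized counts against 688 to 694 in the others (gap over range 0.900), and for *Slc30a5*, with 1512 normalized counts against 1659.8 to 1677 in the others (gap over range 0.898). KO replicate 3 was low for *Slc29a2*, with 163 normalized counts against 213 to 218 in the others (gap over range 0.908). EV replicate 4 was low for *Slc41a1*, with 538 normalized counts against 558 to 562 in the others (gap over range 0.833), and KO replicate 4 was high for *Slc4a1ap*, with 678 normalized counts against 615 to 623 in the others (gap over range 0.867). In 3 genes with few reads the apart library was the highest of the KO group. These were *Slc6a7* in KO replicate 1, with 16.8 normalized counts against 5.599 to 6.56 in the others (gap over range 0.914), *Slc8a2* in KO replicate 3, with 6.56 normalized counts against 1.82 to 2.095 in the others (gap over range 0.942), and *Slco1a5* in KO replicate 4, with 8.399 normalized counts against 1.82 to 2.81 in the others (gap over range 0.849). Without that library their log2 fold changes were -2.31, -2.36 and -2.82 in place of -1.84, -1.71 and -2.09.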

How the results depend on the processing

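No alternative scaling, test, low-count filter or omitted library moved the count of lower or higher genes among all 120, the amino acid families or the other families by over 1.5 times. Counts of the shorter lists can move more, and without TMM factors both iron and copper carriers called higher, *Slc11a2* and *Slc31a1*, lost their calls, as did *Slc38a7* among the lysosomal carriers, *Slc6a6* among those of taurine and *Slc12a2* among the cation-chloride cotransporters, *Slc16a10*, *Slc30a5*, *Slc35a4* and *Slc35f2*. Without TMM factors the median log2 fold change was -0.27 over the 120 genes and 0.41 over the amino acid families, and *Slc6a6*, *Slc12a2* and *Slco2a1* turned to -0.015, -0.004 and -0.043. Under the low-count filter the median of the amino acid families was 0.47. The shift follows from the scaling of all genes together in the first case and from fewer genes in the second. Requiring an absolute log2 fold change over 0.5 left 1935 lower and 1249 higher genes in the table, 30 and 29 of the 120, and 25 and 17 of the other families. DESeq2 ended the calls of 7 members and made 1, the size factors of the authors made 6, and adjustment over 30000 genes ended 8. Leaving out single libraries gave 58 to 62 lower and 48 to 52 higher members, and medians of 0.52 to 0.54 for the amino acid families and -0.16 to -0.14 for all members.

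With the replicate number as a block (replicate block), 62 members were lower and 51 higher, and *Slc5a6* was the call lost (adjusted p = 0.0137). Its call was also lost in 7 of the 8 fits without 1 library. Deviations of same-numbered libraries from their group means correlated between -0.0931 and 0.0998 across genes, so no shared deviation by number was seen. These correlations cannot tell whether same-numbered libraries were prepared together, which the sources used here do not say. Depth limits genes with few reads, since 6 members had a mean under 10 in the higher group. Genes outside the table were not analysed here.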
